A study of Mus musculus with 6 samples.

Results

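The CD94 and NKG2 receptors, the related KLRE and KLRI receptors and the adaptor proteins DAP10 and DAP12 were read as 10 genes in splenic cells of 3 wild-type C57BL/6 (B6) and 3 TLR7tg mice. The members were chosen by gene symbol, as every probe on an Illumina mouse BeadArray whose platform symbol is Klrd1, Klrk1, Klrc1, Klrc2, Klrc3, Klre1, Klri1, Klri2, Hcst or Tyrobp. They are 10 of the 19057 genes named on the array and hold 15 of its 45281 probes. A transgene adds Tlr7 to the TLR7tg mice, a lupus model, and the study compared NK1.1+ cells between the strains. The labels of the B6 samples call the cells NK cells and those of the TLR7tg samples NK1.1+ cells. The age and sex of the mice, the promoter of the transgene and the way the cells were isolated are not given in the sources used here. Each sample is 1 mouse, and replicate numbers are names only.

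Natural killer (NK) cells weigh activating against inhibitory signals from lectin-like receptors. CD94, encoded by Klrd1, pairs with NKG2A (Klrc1), an inhibitory receptor, or with NKG2C (Klrc2) or NKG2E (Klrc3), which are activating, and these pairs read the MHC class Ib molecule Qa-1. NKG2D (Klrk1) is a homodimer that binds stress-induced ligands. KLRE1 (Klre1) pairs with KLRI1 (Klri1), which is inhibitory, or with KLRI2 (Klri2), which is activating. The activating receptors have no signalling motif of their own and depend on adaptors. DAP10 (Hcst) couples NKG2D to phosphoinositide 3-kinase, while DAP12 (Tyrobp) carries an immunoreceptor tyrosine-based activation motif, is used by NKG2C, NKG2E and mouse NKG2D, and is also made by myeloid cells.

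The 8 receptor genes lie side by side on chromosome 6, in the order Klre1, Klrd1, Klrk1, Klrc3, Klrc2, Klrc1, Klri1 and Klri2, and the 2 adaptor genes are neighbours on chromosome 7. RefSeq sequences upstream of the annotated start (build GRCm38.p6) were at hand for 7 of the 10 members, namely Klre1, Klrk1, Klrc1, Klrc2, Klrc3, Klri1 and Hcst. Shown here are the 250 bases before the start, read 5′ to 3′ on the gene's strand, of Klre1 (chr6:129577963-129578212, plus strand), the receptor gene with the largest difference, of Klrk1 (chr6:129623865-129624114, minus strand), of the activating pair Klrc2 (chr6:129660557-129660806, minus strand) and Klrc3 (chr6:129643289-129643538, minus strand), of which only the former was detected, and of the adaptor gene Hcst (chr7:30419855-30420104, minus strand). Capitals mark the Runx core TGTGGT or its reverse complement ACCACA and the Ets core GGAAGT or its reverse complement ACTTCC, and the marked matches do not overlap.
Klre1: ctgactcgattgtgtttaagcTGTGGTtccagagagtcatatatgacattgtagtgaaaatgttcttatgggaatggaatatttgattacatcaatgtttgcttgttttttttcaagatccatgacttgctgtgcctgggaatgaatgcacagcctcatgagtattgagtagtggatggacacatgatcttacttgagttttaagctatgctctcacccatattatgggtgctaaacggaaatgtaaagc
Klrk1: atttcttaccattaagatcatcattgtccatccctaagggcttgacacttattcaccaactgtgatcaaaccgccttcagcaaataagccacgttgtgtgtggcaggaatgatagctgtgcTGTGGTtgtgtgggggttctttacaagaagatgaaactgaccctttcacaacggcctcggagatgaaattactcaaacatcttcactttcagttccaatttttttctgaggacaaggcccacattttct
Klrc2: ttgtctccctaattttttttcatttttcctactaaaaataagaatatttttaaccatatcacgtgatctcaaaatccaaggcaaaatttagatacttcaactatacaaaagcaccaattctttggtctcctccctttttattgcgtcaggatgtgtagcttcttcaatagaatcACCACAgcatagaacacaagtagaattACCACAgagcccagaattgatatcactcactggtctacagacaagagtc
Klrc3: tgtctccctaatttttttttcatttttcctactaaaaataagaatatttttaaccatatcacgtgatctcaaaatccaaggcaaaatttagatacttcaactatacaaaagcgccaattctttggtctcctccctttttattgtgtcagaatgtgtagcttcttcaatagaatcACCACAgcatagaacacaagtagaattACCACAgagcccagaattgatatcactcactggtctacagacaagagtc
Hcst: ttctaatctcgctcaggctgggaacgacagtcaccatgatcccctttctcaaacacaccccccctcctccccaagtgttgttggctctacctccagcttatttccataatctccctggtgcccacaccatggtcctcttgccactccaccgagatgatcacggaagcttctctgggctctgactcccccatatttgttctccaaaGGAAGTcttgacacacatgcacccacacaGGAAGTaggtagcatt
The Klrc2 and Klrc3 windows were identical at 246 of 249 aligned bases (98.8%), and each held 2 Runx cores at the same place. A Runx core stood in at least 1 window of 5 of the 6 receptor genes with a sequence, all but Klri1, and in none of the Hcst letters shown. For Klre1 it stood in the window shown but not in that of its other annotated start (chr6:129578036-129578285). Counted over all alternative starts, it stood in 6 of 9 member windows, against 14.0% of 32851 windows of this length in the whole table. The member windows are not separate, since both Klrc2 windows overlap and the Klrc3 window nearly repeats their sequence. The count is therefore no test against that share. The Ets core stood in 1 of the 9 member windows, that of Hcst, against 19.7% of all windows. The motifs were chosen after the sequences had been read, and a match describes the letters of these windows only.

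Values are normalised log2 signals, and a gene was read through its brightest probe that reached the detection level of 6.9 in at least 3 of the 6 mice. In this way 9 members and 12 of their probes were measured among 9173 genes. Tlr7 checked the labels and had mean signals of 9.13 ± 0.57 in B6 and 13.80 ± 0.71 in TLR7tg (SD over 3 mice each), with no overlap. The cells also differed in their cell type markers. All 8 measured NK markers fell (median difference -2.40), of which Ncr1, Itga2 and Eomes were undetected in TLR7tg and passed the filter only through B6. With detection required in all 6 mice 4 NK markers fell. Klrb1c, the gene of NK1.1, fell from 9.64 to 7.47. All 6 measured neutrophil markers and 5 of 8 monocyte and macrophage markers rose (medians 4.40 and 1.62), and both measured erythroid markers rose. Of 7 listed T cell markers 4 were measured, and 3 fell, the CD3 genes Cd3d, Cd3e and Cd3g. Cd4, Cd8a and Cd5 did not pass the filter. Only 2 markers of B cells and 2 of dendritic cells were measured, and none passed the test. The neutrophil count was 3 without B6 replicate 2, without B6 replicate 3 or without TLR7tg replicate 2, and 1 without a filter or with detection in all 6 mice. The monocyte and macrophage count was 3 without TLR7tg replicate 2 and 1 without a filter. Among TLR7tg mice, replicate 3 had the highest mean over the NK markers (8.09, against 7.42 and 7.46) and the lowest over the neutrophil markers (9.22, against 12.06 and 12.77). In such bulk samples, fewer cells of a type and less RNA per cell cannot be told apart. The part of the other cell types in the results below was not tested.

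Of the 9 measured members, 8 were lower in TLR7tg and none was higher (limma, adjusted p under 0.05). They were the 7 measured receptor genes and the adaptor gene Hcst, while the adaptor gene Tyrobp did not pass. Over all genes, 6.97% were called lower and 7.74% higher. The groups did not overlap in all 9 members, lower in TLR7tg each time, as in 18.5% of all genes. Klrc1 and Klrc2 lay below the detection level in every TLR7tg mouse and passed the filter only through B6, so that their calls are no independent support for the count. Where all 6 mice had to reach the level, 3 receptor genes and both adaptor genes were left, of which Klrd1, Klrk1, Klre1 and Hcst were called lower. The median difference over all genes was -0.06. The plot of the members in each mouse shows the separation of the groups and the detection level.

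**Figure D1:**
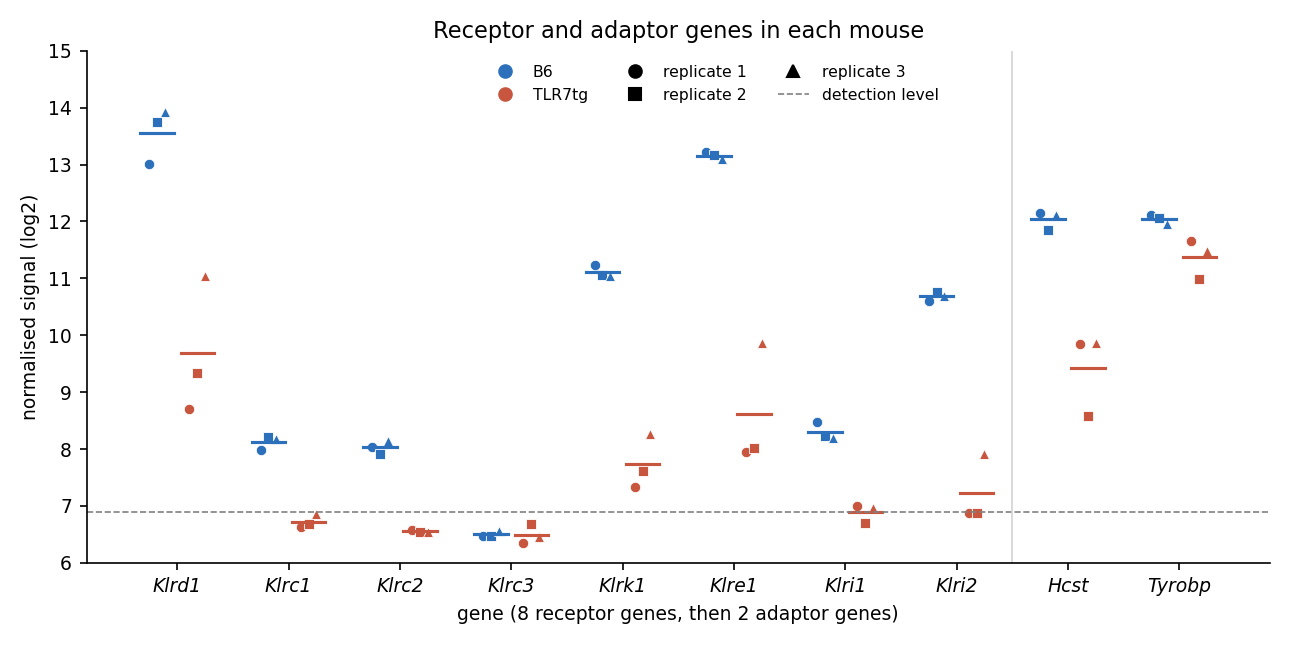
Normalised signal (log2, vertical axis) of the 8 receptor genes and 2 adaptor genes (horizontal axis), each point 1 mouse and each short line the group mean over 3 mice. The dashed line is the detection level of 6.9. Klrd1, Klrk1, Klre1, Klri2 and Hcst are far apart between the groups, Tyrobp only by 0.67, and Klrc3 lies below the level in all mice.

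CD94 is the obligate partner of the NKG2A, NKG2C and NKG2E chains. Klrd1 had signals of 13.00, 13.74 and 13.92 in the B6 mice and 8.70, 9.33 and 11.05 in the TLR7tg mice. Even the highest TLR7tg mouse, replicate 3, lay below the lowest B6 mouse, and the SD was 1.21 in TLR7tg against 0.49 in B6. The gene fell by 3.86 (SE 0.53, limma adjusted p = 0.00187), or 14.5-fold, and held rank 9 among the falls of all 9173 genes.

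The chains that pair with CD94 were dimmer. Klrc1, encoding the inhibitory NKG2A, had signals of 7.98, 8.21 and 8.18 in B6 and 6.64, 6.69 and 6.85 in TLR7tg. Klrc2, encoding the activating NKG2C, had signals of 8.03, 7.91 and 8.15 in B6 and 6.58, 6.54 and 6.54 in TLR7tg. Both were above the level in all B6 mice and below it in all TLR7tg mice, so that only a bound can be given. Against a floor of 6.9, Klrc1 was at least 2.33-fold lower (adjusted p = 0.00108) and Klrc2 at least 2.19-fold lower (adjusted p = 0.000682, both limma). The differences on the deposited values were -1.40 (SE 0.17) for Klrc1 and -1.48 (SE 0.16) for Klrc2, and -2.42 and -2.79 with normexp background correction, a model-based subtraction of the background signal. Since the TLR7tg signals are at the floor, the inhibitory and the activating chain cannot be compared in size. Klrc3, encoding NKG2E, was below the level in all mice, with signals of 6.47, 6.47 and 6.56 in B6 and 6.35, 6.68 and 6.46 in TLR7tg, and was not tested. At this signal nothing can be said of a change in Klrc3. Whether the probes of Klrc1, Klrc2 and Klrc3, genes of similar sequence, also bind one another's transcripts was not tested.

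NKG2D was read by 4 probes. The brightest Klrk1 probe had signals of 11.24, 11.07 and 11.03 in B6 and 7.34, 7.61 and 8.26 in TLR7tg. The B6 mice lay close together, and every TLR7tg mouse lay far below them. On this probe Klrk1 fell by 3.38 (SE 0.24, limma adjusted p = 0.000189), or 10.4-fold, rank 24 among all genes. The other detected Klrk1 probes fell by 2.73 (SE 0.30) and fell by 2.98 (SE 0.25), and the remaining one did not pass the filter, with 6.43 to 6.73 in B6 and 6.63 to 6.91 in TLR7tg.

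The KLRE and KLRI genes held the largest difference among the members. Klre1, encoding the chain shared by both heterodimers, had signals of 13.21, 13.16 and 13.10 in B6 and 7.95, 8.02 and 9.87 in TLR7tg. It fell by 4.54 (SE 0.45, limma adjusted p = 0.000463), or 23.3-fold, and held rank 4 among all genes. TLR7tg replicate 3 again stood above the other TLR7tg mice. Klri2, the activating partner, had signals of 10.60, 10.76 and 10.69 in B6 and 6.88, 6.87 and 7.91 in TLR7tg, where replicate 3 alone reached the detection level. It fell by 3.46 (SE 0.28, limma adjusted p = 0.000237). With TLR7tg replicates 1 and 2 just below the level this size is limited by the floor, and it was -4.34 with normexp background correction. Klri1, the inhibitory partner, had signals of 8.47, 8.23 and 8.20 in B6 and 7.001, 6.71 and 6.96 in TLR7tg, the latter close to the level. It fell by 1.41 (SE 0.18, limma adjusted p = 0.0013), and a second Klri1 probe fell by 1.39 (SE 0.19). The third Klri1 probe did not pass the filter, and its groups overlapped. TLR7tg replicate 3 was the highest TLR7tg mouse in 5 of the 7 measured receptor genes, all but Klrc2 and Klri1.

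The adaptor genes differed from each other. Hcst, encoding DAP10, had signals of 12.15, 11.85 and 12.12 in B6 and 9.84, 8.59 and 9.86 in TLR7tg. It fell by 2.61 (SE 0.33, limma adjusted p = 0.0013), or 6.11-fold, and its lowest TLR7tg mouse was replicate 2, not replicate 1 as for Klrd1, Klrk1 and Klre1. Tyrobp, encoding DAP12, had signals of 12.12, 12.06 and 11.96 in B6 and 11.66, 11.00 and 11.48 in TLR7tg. The groups did not overlap, but the difference of -0.67 (SE 0.21) did not pass over all probes (limma adjusted p = 0.0679). It passed with the named slide as a block (adjusted p = 0.0273), with neighbouring mouse identifiers as a block (0.0259), with array weights (0.0383) and without TLR7tg replicate 1 (0.0355), and its adjusted p ranged from 0.0259 to 0.193 over the alternatives run on all mice or all but 1. The labels name arrays for 1 mouse of each group, and the number these arrays share is read here as 1 slide, called the named slide. No arrays could be matched to the other 4 mice, so that the slides they were on are not known. The slide block pooled these 4 mice as 1 batch, which no label gives. On the named slide Hcst differed by -2.31 and Tyrobp by -0.45. Among the other 4 mice the differences were -2.76 and -0.77. The receptor genes differed by -1.35 to -5.26 on that slide and by -1.38 to -4.18 among the other 4 mice, lower in both for each of the 7.

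To set the genes against an adaptor, the adaptor's log2 signal was subtracted in each mouse. Levels of different probes cannot be compared, so that only the shift of this ratio between the groups is read. Against Tyrobp, all 7 measured receptor genes were lower in TLR7tg, and their groups did not overlap. This count includes Klrc1 and Klrc2, whose TLR7tg signals are below the detection level, and with detection required in all 6 mice 3 receptor genes were left, each called lower. Of all genes, 2.65% were lower without overlap, 49.6% were higher without overlap, 1.81% were called lower and 25.5% were called higher in this comparison. For Klre1 the log2 ratio to Tyrobp was 1.096, 1.096 and 1.14 in B6 and -3.71, -2.98 and -1.61 in TLR7tg. Its shift was -3.88 (limma SE 0.41, limma adjusted p = 1.45e-05). Klrd1 (-3.19), Klri2 (-2.80) and Klrk1 (-2.71) shifted likewise, and so did Klrc2 by -0.81 (adjusted p = 0.0460). The SE from the gene's own spread was 0.62 for Klre1 and 0.80 for Klrd1 (limma 0.48). It was also above limma's for Klri2 and Klrk1, and below it for Klrc1, Klrc2 and Klri1. All probes share the subtracted Tyrobp signal, so that the limma tests are not independent of each other. Klrc1 (-0.73, adjusted p = 0.0665) and Klri1 (-0.74, adjusted p = 0.0515) did not pass. Both passed with neighbouring mouse identifiers as a block (adjusted p = 0.0272 and 0.0246), with the named slide as a block (0.0232 and 0.0217), with array weights, without a filter and without TLR7tg replicate 2. With the identifier block and without a filter, limma gave all measured members the same SE against Tyrobp (0.29 and 0.27). The p-values of those 2 fits do not reflect the spread of a single gene and are not relied on. With normexp background correction the shifts of Klrc1, Klrc2 and Klri1 were -1.73, -2.11 and -1.57, and each was called lower. For Klrc2 the call ended without any 1 of 5 mice, all but TLR7tg replicate 2, with an adjusted p of up to 0.152. An exact two-sided permutation test over the 6 mice gave p = 0.1 for each of the 7 genes, the smallest p that 3 against 3 mice allow.

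Hcst itself fell against Tyrobp. Its log2 ratio to Tyrobp was 0.03, -0.21 and 0.16 in B6 and -1.83, -2.41 and -1.62 in TLR7tg, a shift of -1.94 (SE 0.29, limma adjusted p = 0.000218). The B6 mice thus lay around 0 and every TLR7tg mouse well below, and the shift was -1.86 within that slide and -1.99 in the other 4 mice. On the scanner signals of that slide it was -1.90 with 3 scalings and -1.81 with the fourth.

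Against Hcst, the receptor genes did not share a direction on the deposited values, and no exact permutation p was below 0.1. Of all genes, 0.185% were lower and 98.3% were higher without overlap in this comparison. Klre1 had log2 ratios to Hcst of 1.07, 1.31 and 0.98 in B6 and -1.89, -0.57 and 0.01 in TLR7tg, a shift of -1.93 with no overlap (SE from its own spread 0.57, exact permutation p = 0.1). Klri2 shifted by -0.85 (SE 0.41) without overlap, by -0.48 without TLR7tg replicate 1 and by -1.59 with normexp background correction. Klrd1 (-1.25, SE 0.78) and Klrk1 (-0.77, SE 0.45) had overlapping groups (exact permutation p = 0.2 each). In Klrd1 and Klrk1, TLR7tg replicate 1 was the lowest, at -1.13 and -2.50, and the shift without that mouse was -0.55 and -0.37. The 3 dim genes Klrc1, Klrc2 and Klri1 shifted upward by 1.21, 1.13 and 1.20 on the deposited values, where Klrc1 and Klrc2 have only an upper bound in TLR7tg and Klri1 lies at the detection level. With normexp background correction these shifts were 0.33, -0.04 and 0.49. On the scanner signals of the named slide the same 3 genes shifted downward, by -1.02, -1.21 and -0.81 with 3 scalings and by -0.51, -0.69 and -0.47 with the fourth, so that their direction against Hcst is not settled. All 7 measured receptor genes were lower against Hcst there with each of the 4 scalings. The limma fit of these ratios gave 2 receptor genes called lower and 3 called higher. It gave all 16534 probes the same SE of 0.51, since the shared subtracted signal dominates it, and called 0.174% of all genes lower and 98.4% higher. In all, 14 comparisons of a receptor gene with an adaptor gene were made.

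**Figure D2:**
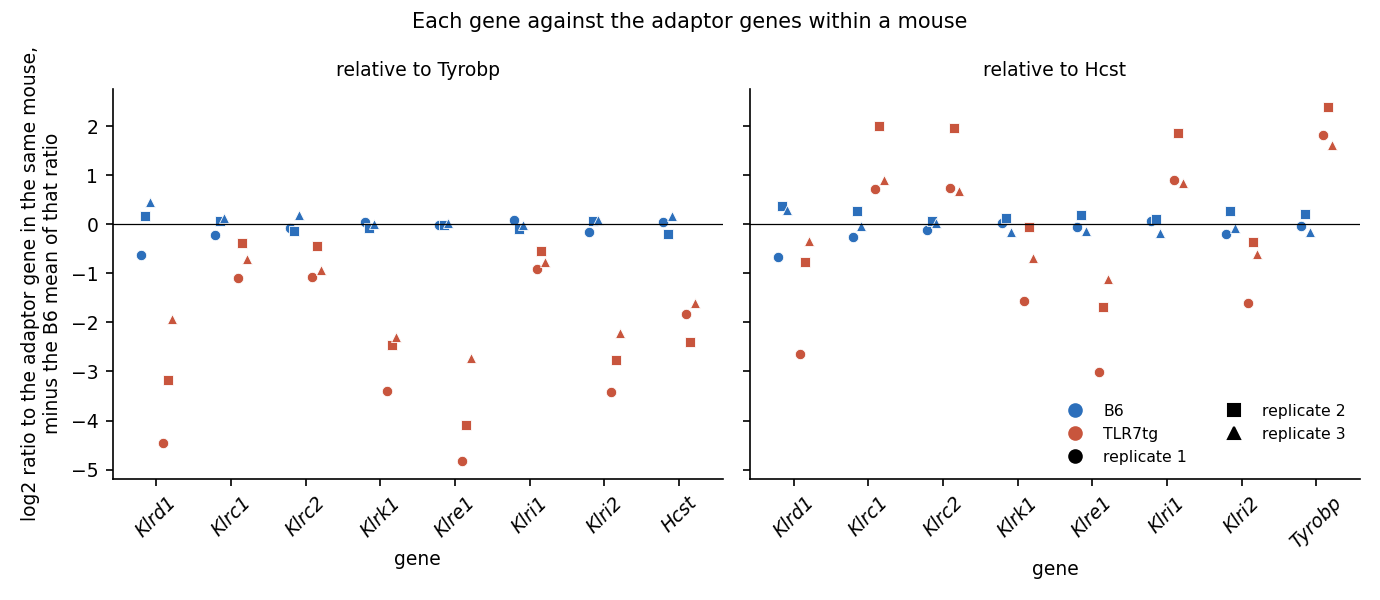
Log2 ratio of each gene to Tyrobp (left) or Hcst (right) in the same mouse, minus the B6 mean of that ratio (vertical axis), for the measured genes (horizontal axis). Each point is 1 mouse. Against Tyrobp all 7 receptor genes and Hcst are lower in TLR7tg, while against Hcst Klre1 and Klri2 are lower without overlap, Klrd1 and Klrk1 overlap, and the dim Klrc1, Klrc2 and Klri1 are higher on the deposited values.

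Scanner signals before any normalisation could be matched to 2 mice only, those of the named slide, each hybridised to 2 arrays. Tyrobp had linear signals of 10138 and 12111 on the arrays of B6 replicate 1 and 17769 and 21264 on those of TLR7tg replicate 1. The raw signal was therefore higher in the TLR7tg mouse, by 0.81 on the log2 scale. The whole TLR7tg arrays were brighter too, with a median shift of 0.73 over the kept probes, and relative to that shift Tyrobp differed by 0.08. Scaling by the median gave 0.44 (shift 0.36), scaling by the 75th percentile 0.02 (shift -0.06) and quantile normalisation among the 4 arrays -0.40 (shift -0.09). The direction of Tyrobp thus depends on the scaling. Hcst was lower with each of these 4 scalings, by -1.09, -1.46, -1.88 and -2.22 in the same order. All 7 measured receptor genes were lower with each of the 4 scalings as well, from -1.89 to -4.62 unscaled and from -2.69 to -5.60 after quantile normalisation. Klre1 had signals of 22839.5 and 24211 on the B6 arrays and 785 and 1171 on the TLR7tg arrays. No replicate mice could be matched to these arrays, and the differences describe 2 mice only.

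**Figure D3:**
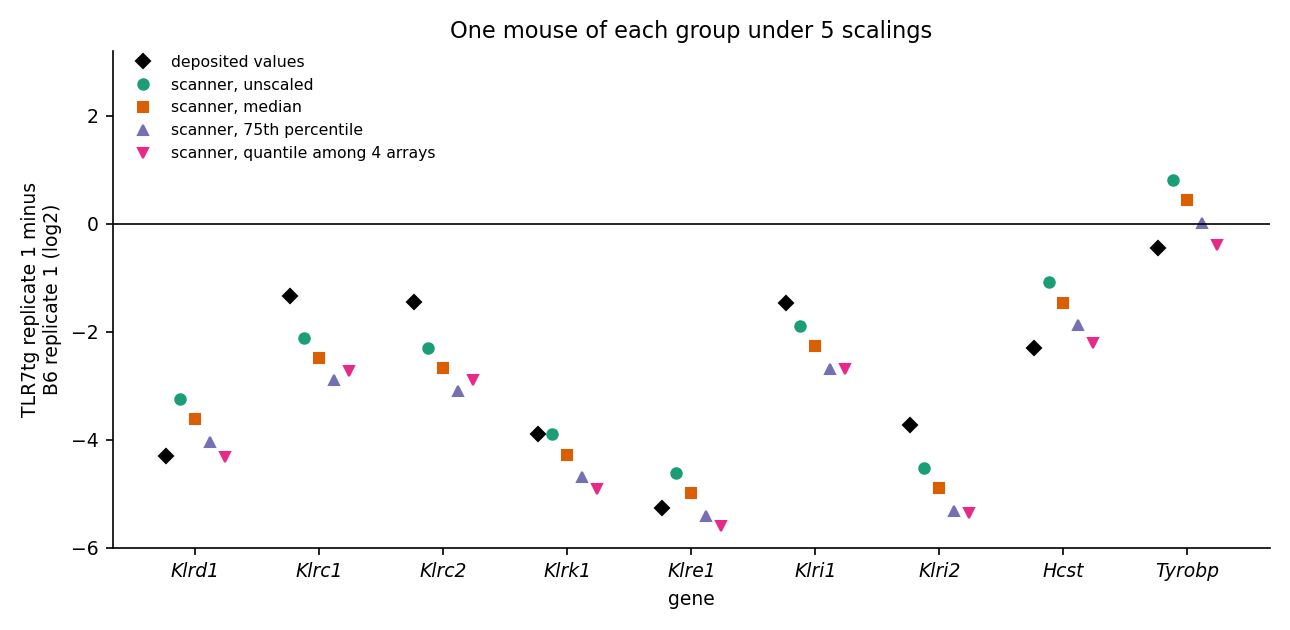
Difference of TLR7tg replicate 1 minus B6 replicate 1 (log2, vertical axis) for each measured gene (horizontal axis), on the deposited values and on the scanner signals with 4 scalings. Each symbol is 1 mouse against 1 mouse. The receptor genes and Hcst are below 0 with every scaling, while Tyrobp lies at 0.81, 0.44 and 0.02 with 3 scalings and at -0.40 and -0.45 with the others.

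Along chromosome 6, the measured genes next to the receptor block on either side did not pass the test. The nearest measured gene before Klre1 is Gabarapl1, an autophagy gene, which differed by -0.18 (SE 0.19, limma adjusted p = 0.652). Beyond it Clec7a, encoding the myeloid lectin Dectin-1, had a difference of 1.49 (adjusted p = 0.0560) that did not pass. After Klri2 follow Klrh1 (-0.12, adjusted p = 0.80), which reached the detection level in only 2 B6 mice and 1 TLR7tg mouse, and Klra17, a Ly49 family gene, which rose by 2.41 (SE 0.32, adjusted p = 0.00165). Within the block the differences ran from -4.54 at Klre1 to -1.40 at Klrc1. The smaller ones belonged to Klrc1, Klrc2 and Klri1, near or below the detection level in TLR7tg and dim in B6 (means 8.12, 8.03 and 8.30). Klri2, just below the level in TLR7tg replicates 1 and 2, had a B6 mean of 10.68 and differed by -3.46. The genes around the adaptor pair on chromosome 7, Alkbh6 (-0.47), Sdhaf1 (-0.10), Nfkbid (-0.17) and Proser3 (-0.14), did not pass. Tyrobp and Hcst, side by side there, had differences of -0.67 and -2.61.

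**Figure D4:**
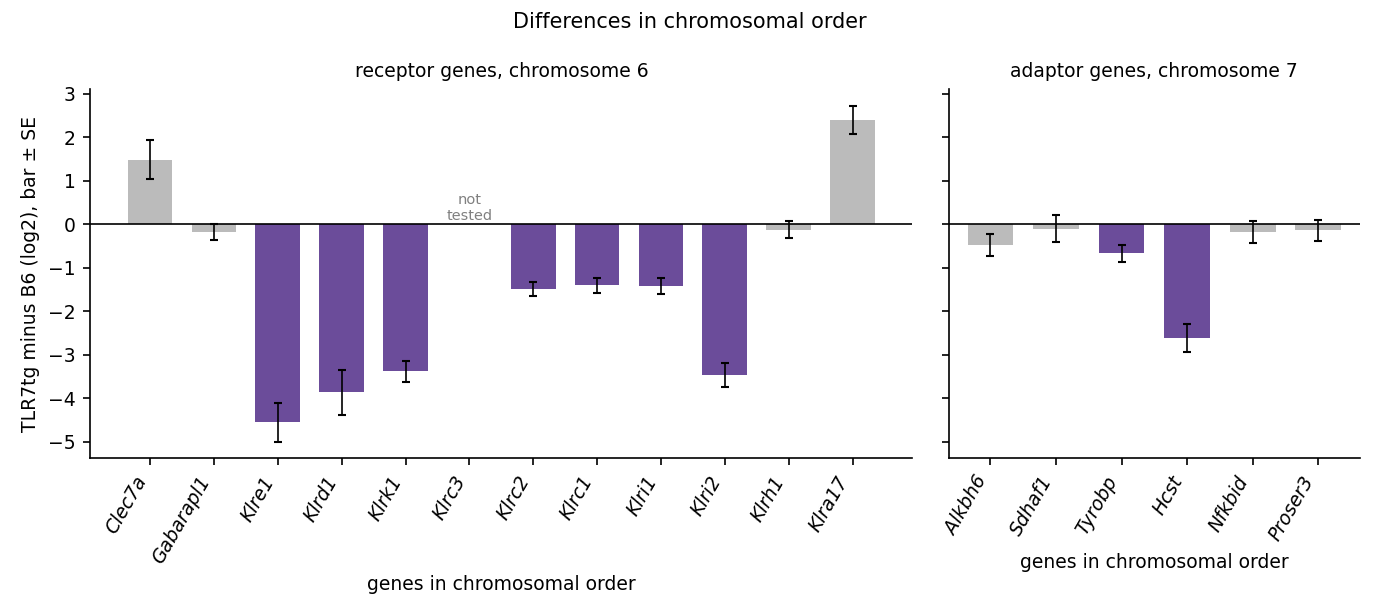
TLR7tg minus B6 (log2, bars with SE, n = 3 mice per group) for the members (dark) and their nearest measured neighbours (grey), in chromosomal order. Unmeasured neighbours are left out, and Klrc3 is marked as not tested. The 7 measured receptor genes are all below 0, from -1.40 to -4.54. The nearest flanking genes are at -0.18 and -0.12, and beyond them Clec7a is at 1.49 and Klra17 at 2.41. Hcst stands below Tyrobp and the genes around them.

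The genes whose course over the 6 mice was most like that of a member were found by the root mean square distance of log2 values centred on each gene's mean. For Klrd1 they were Ctsw, a protease of cytotoxic lymphocytes (distance 0.21), the chemokine gene Ccl5 (0.34) and the receptor gene Cd160 (0.36), with Klre1 and Klri2 at 0.49. For Hcst they were the chemokine gene Xcl1 (0.31), the NK receptor gene Klrb1a (0.33) and Tnfrsf18, encoding GITR (0.34), with Klri2 and Klrk1 at 0.59. For Tyrobp they were Jtb (0.06), Zfp664 (0.07) and Crtc3 (0.07), while its distance to the measured receptor genes ran from 0.39 for Klri1 to 2.03 for Klre1. Klri1, with TLR7tg signals close to the detection level, held rank 3320 in likeness to Tyrobp. The distance depends on the size of a gene's difference, which the floor limits in the dim receptor genes. All points share the same 6 arrays, and these distances are descriptions.

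DAP12 also serves receptors outside the CD94 and NKG2 group, and these moved in opposite directions. Of 10 listed partners, all measured, 2 fell, 6 rose and 2 did not pass. Trem1 and Clec5a, among those that rose, lay below the detection level in all B6 mice and passed the filter only through TLR7tg, and with detection required in all 6 mice 1 partner fell and 3 rose. Over the 10 genes the median difference was 0.84, against -0.06 over all genes. Both that fell are activating Ly49 receptors of NK cells, Klra4 (-5.07, SE 0.62) and Klra8 (-4.43, SE 0.39). The 6 that rose were led by Sirpb1a (2.74, SE 0.35) and Trem3 (2.68, SE 0.43), receptors of myeloid cells. For Sirpb1a the signals were 9.01, 10.16 and 10.50 in B6 and 12.57, 12.47 and 12.86 in TLR7tg, with no overlap. Trem2 (0.43) and Siglech (-0.03) did not pass. In the same mice 5 of the 8 measured monocyte and macrophage markers rose, as given above, and their part in these differences was not tested.

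Among other signalling chains, 4 of 6 measured genes fell and 2 did not pass. Cd247, encoding the zeta chain used by T cell receptors and by CD16 in NK cells, fell by 2.49 (SE 0.26, limma adjusted p = 0.000547), and Cd3d (-2.42), Cd3e (-1.64) and Cd3g (-1.59) fell as well. The T cell markers in these samples include the same CD3 genes. Fcer1g, the gamma chain shared by NK and myeloid cells, had signals of 14.61, 14.13 and 14.11 in B6 and 14.39, 14.01 and 14.57 in TLR7tg. Its groups overlapped, with a difference of 0.04 (SE 0.22, adjusted p = 0.945).

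Downstream of the adaptors, 4 of 15 measured signalling genes fell, 2 rose and 9 did not pass (median -0.38). Of all genes, 6.97% were called lower and 7.74% higher, with a median of -0.06. Zap70, a kinase that binds phosphorylated activation motifs in NK and T cells, had signals of 11.64, 11.71 and 11.74 in B6 and 7.56, 7.90 and 8.87 in TLR7tg, and fell by 3.59 (SE 0.31, limma adjusted p = 0.000286). Syk, the related kinase that is also used by myeloid and B cells, had a difference of 0.48 (SE 0.20, adjusted p = 0.175). Prkcq, Pik3r1 (a regulatory subunit of phosphoinositide 3-kinase) and the scaffold gene Lat fell too, with differences of -2.22, -1.80 and -1.67. The exchange factor genes Vav2 (0.93, adjusted p = 0.0373) and Vav3 (0.80, adjusted p = 0.0473) rose, but no gene of this list was called higher in 7 of the 15 alternative settings, among them those without any 1 of the B6 mice and without TLR7tg replicate 2. Of the 3 phosphatase genes that act for inhibitory receptors, Ptpn6, encoding SHP-1, rose by 1.17 (SE 0.21, adjusted p = 0.00602), and Ptpn11 (0.04) and Inpp5d (0.18) did not pass.

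**Figure D5:**
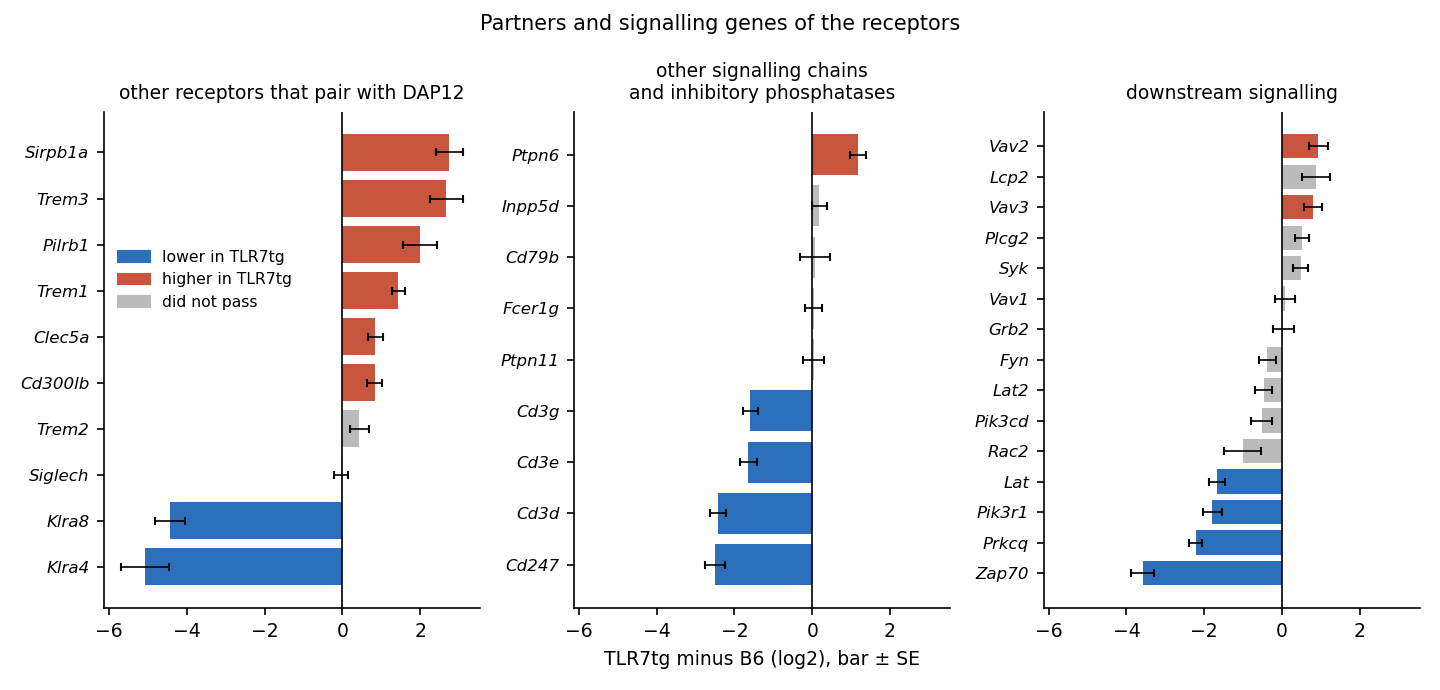
TLR7tg minus B6 (log2, bars with SE, n = 3 mice per group) for receptors outside the CD94 and NKG2 group that pair with DAP12 (left), other signalling chains and inhibitory phosphatases (middle) and downstream signalling genes (right), coloured by the limma call. The Ly49 genes Klra4 and Klra8 are at -5.07 and -4.43 and the highest partner gene, Sirpb1a, is at 2.74. Zap70 is the lowest signalling gene at -3.59.

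Of the ligand genes, 2 of 11 listed were measured and neither passed. H2-T23, which encodes Qa-1, the ligand of CD94 and NKG2 pairs, had mean signals of 12.40 ± 0.51 in B6 and 12.29 ± 0.40 in TLR7tg (SD over 3 mice each). B2m, its light chain, differed by -0.02 (SE 0.23, limma adjusted p = 0.977). The NKG2D ligand genes Raet1d, Raet1e and Ulbp1 stayed below the detection level in all 6 mice, so that no difference was detectable at this signal, and the other listed ligand genes had no probe by that symbol.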

How the data were processed

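Per the labels' protocols, total RNA was made into biotin cRNA for Illumina mouse BeadArrays. The deposited log2 values of 45281 probes have sorted columns that differ by at most 0.0085, as quantile normalisation leaves them. No source used here names the tool. Both replicates numbered 1 average 2 technical arrays, per the labels. The deposited scanner table gives unnormalised intensity and detection p-values, per the file headers, and 8 of its columns match no mouse and were not used. Deposited values had slopes of 0.71 and 0.60 on log2 intensity, so that folds hold on the deposited scale only.

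Detection was set at 6.9, from which at least 95% of probes per 0.1 bin had a detection p under 0.05 in both mice with scanner data. The 16535 probes at or above it in at least 3 of 6 mice went into limma (version 3.58.1, R 4.3.3). The fit used lmFit, then eBayes and Benjamini-Hochberg with a threshold of 0.05, and was also run on simulated data. Those data had independent noise and no detection floor, so that deviations shared between mice and the floor were not covered. For adaptor ratios the simulation checked the estimates, not the calls. The number of arrays limits the precision. Adaptor ratios were fitted likewise. Gene order came from RefSeq (GRCm38.p6). All 10 members were named, with at most 4 genes per list (the largest differences past the threshold, and those behind small counts). Members and lists were chosen with earlier results of these data known. One TLR7tg title (replicate 1) repeats a B6 mouse identifier, and groups follow the strain label. Alternatives were the filter, probe rule, background, centring, eBayes settings, array weights, slide and identifier blocks and leaving out each mouse. Scanner scalings and permutation tests were added after seeing the data.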

Additional observations from a re-analysis of the deposited data

How the results depend on the processing

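All 8 members called lower kept direction and call in every alternative that measured them, and on scanner signals all 8 kept their direction. With detection required in all 6 mice the count was 4, and it ran from 8 to 9 without any 1 mouse, where the ninth is Tyrobp without TLR7tg replicate 1. Over all genes, 459 were called higher without a filter, 1083 lower with the slide as a block, and 341 to 629 lower and 421 to 756 higher without any 1 mouse, the lowest counts without B6 replicate 2, with 411 lower without B6 replicate 3. Against Tyrobp, 3 receptor genes were called lower with detection in all 6 mice and 1 higher without a filter, Klrc3, which lies below the detection level, and 4 to 7 were called lower without any 1 mouse. Against Hcst, none was called higher with detection in all 6 mice (0) or with normexp (0), and without any 1 mouse 1 to 4 were called lower and 0 to 3 higher. Reversed values against Hcst were those of Klrc2 with normexp (-0.040) and of Klrc1, Klrc2 and Klri1 on scanner signals (-1.02, -1.21 and -0.81 unscaled, by median and by 75th percentile, and -0.51, -0.69 and -0.47 by quantile). Tyrobp alone turned to 0.81, 0.44 and 0.016 with the first 3 of these. The causes were not tested. Neighbouring mouse identifiers, which the labels do not call pairs, had correlated deviations (0.63, 0.12 and 0.45), each above 0.1. For the second pair, crossed correlations of 0.14 (B6 replicate 2 with TLR7tg replicate 3) and 0.21 (B6 replicate 3 with TLR7tg replicate 2) were larger. With them as a replicate block, 1166 genes were called lower and 1118 higher, 4 receptor genes were called lower against Hcst, Tyrobp passed (adjusted p = 0.0259), and Klrc1 and Klri1 passed against Tyrobp (0.0272 and 0.0246). That block gave all measured members the same SE against Tyrobp (0.29) and against Hcst (0.39), and so did the fit against Tyrobp without a filter (0.27). The p-values of these ratio fits do not reflect the spread of a single gene. Without background subtraction, signals near 6.9 limit what Klrc1, Klrc2, Klrc3 and Klri1 can show.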
